A study of Homo sapiens with 4 samples.

Results

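The 10 genes described here, ATF4, DDIT3, TRIB3, PPP1R15A, CHAC1, SESN2, DDIT4, CEBPB, STC2 and ASNS, form the transcriptional core of the ATF4 and CHOP stress response, and were taken by gene symbol from the 58735 genes of the deposited table, where each symbol had 1 row. They were measured by RNA sequencing in 4 libraries labelled as the line HFL1, fibroblasts of human fetal lung. Most fibroblast markers did not bear out that label, as given below. Of the libraries, 2 were labelled KO for calumenin (gene CALU, an ER-resident and secreted protein that binds calcium) and 2 were labelled WT. The study asked how calumenin affects senescence and fibrosis signalling in fibroblasts, by knockout or knockdown of the gene. Treatment, culture time, the way the gene was disrupted and whether the KO cells were 1 clone or a pool are not stated in the labels. CALU stood at 6.59 and 5.95 FPKM (fragments scaled to gene length and library depth) in the libraries labelled KO, against 87.7 and 81.8 FPKM in those labelled WT.

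The response is the route by which cells meet shortage of amino acids, unfolded protein in the endoplasmic reticulum, lack of haem or viral RNA. Kinases phosphorylate the translation initiation factor eIF2, general protein synthesis slows, and the ATF4 messenger, whose upstream reading frames normally hold it back, is translated better. ATF4 protein then pairs with C/EBP-family factors on composite DNA elements and raises genes for amino acid supply and for feedback, among them DDIT3, which encodes the factor CHOP. Gene counts measure messenger levels only and do not show how much ATF4 protein was made.

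Most of these messengers were lower in KO cells. Of the 10 genes, 9 were tested, each at 1 FPKM or more in all 4 libraries, and 8 of them fell in KO, 0 rose, and CEBPB did not pass the test (limma with Benjamini-Hochberg adjustment over 14100 genes, adjusted p under 0.05). Across all tested genes, 11.6% were called lower and 12.7% higher, against 88.9% lower among the tested members. The members were chosen with earlier results of these data known, so the gap between these shares is no independent support. Among the 8 called members, falls in mean FPKM ran from 13.4-fold for CHAC1 to 1.78-fold for ATF4 itself. In 9 of the 10 genes, ASNS included, both KO libraries lay below both WT libraries, as was the case for 31.3% of all genes tested. The median log2 change of the 9 tested members was -1.52, beside 0.03 for all tested genes. The same fit without a filter on low values, which tests 32306 genes, kept 3 of these calls, those of CHAC1, SESN2 and STC2, against a background of 0.823% called lower. Limma-voom on reads recovered from the FPKM values, an alternative chosen after seeing the data, also called 8 members lower, beside 13.9% of all genes. No label states that replicates were separate cultures, and p-values therefore describe only how these libraries scatter, which may be technical. In bulk RNA, fewer cells carrying a messenger and less messenger per cell cannot be told apart.

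Windows around RefSeq starts of CHAC1, ASNS and PPP1R15A are shown because they held a searched motif, as no window of the other members did. RefSeq windows on GRCh38.p14 run from 250 bases before to 50 bases after an annotated start, and 16 windows covered all 10 genes. The C/EBP-ATF composite element was searched as TGATGNAAN on both strands and the cyclic AMP response element as TGACGTCA, which reads the same on both strands. No match overlapped another in these windows. Capitals mark the match.
CHAC1 (chr15:40953221-40953520, plus strand): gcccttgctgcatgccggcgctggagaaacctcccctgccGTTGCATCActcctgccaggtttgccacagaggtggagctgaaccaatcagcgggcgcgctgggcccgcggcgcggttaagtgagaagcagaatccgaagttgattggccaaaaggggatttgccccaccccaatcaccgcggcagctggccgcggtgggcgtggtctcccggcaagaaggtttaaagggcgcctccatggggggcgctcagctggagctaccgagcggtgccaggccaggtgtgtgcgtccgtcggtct
ASNS (chr7:97872359-97872658, minus strand): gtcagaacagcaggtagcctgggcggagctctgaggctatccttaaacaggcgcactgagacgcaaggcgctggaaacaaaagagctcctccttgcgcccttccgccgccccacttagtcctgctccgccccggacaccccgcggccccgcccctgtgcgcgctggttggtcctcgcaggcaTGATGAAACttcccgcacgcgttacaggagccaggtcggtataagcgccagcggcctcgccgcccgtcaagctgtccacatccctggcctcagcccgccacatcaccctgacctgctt
PPP1R15A (chr19:48872171-48872470, plus strand): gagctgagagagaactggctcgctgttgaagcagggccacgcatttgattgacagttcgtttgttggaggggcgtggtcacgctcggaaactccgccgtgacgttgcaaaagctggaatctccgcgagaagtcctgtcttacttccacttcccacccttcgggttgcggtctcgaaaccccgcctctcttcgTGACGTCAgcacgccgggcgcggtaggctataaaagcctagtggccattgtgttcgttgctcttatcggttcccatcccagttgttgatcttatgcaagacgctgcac
In CHAC1 the match begins 210 bases before the RefSeq start and reads TGATGCAAC on the opposite strand. In ASNS the match, TGATGAAAC, begins 68 bases before the RefSeq start of 1 of the gene's 2 windows. These starts differ from the ends of the measured genes. The measured CHAC1 gene begins at 40952962, so the whole window lies inside it. The measured ASNS gene reaches to 97872542, upstream of the RefSeq start, so its match lies inside the gene too. The composite element occurred in 3.61% of all 35116 windows. In PPP1R15A the cyclic AMP element begins 58 bases before the start, and 1.85% of all windows held these letters. A match of letters is no evidence of binding, and a window without a match says nothing of sites outside it.

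ATF4, the transcription factor at the head of the response (ENSG00000128272, chromosome 22, 39519695 to 39522685, plus strand, GRCh38), stood at 70.6 and 89.3 FPKM in the KO libraries, against 140.4 and 144 FPKM in the WT libraries. The KO values were the more scattered of the groups and lay below both WT values. The mean was 80.0 ± 13.2 FPKM in KO and 142 ± 2.85 FPKM in WT (SD, n = 2 each), and the log2 difference was -0.83 (SE 0.17, adjusted p = 0.022 in limma). That call was lost without WT replicate 1 (limma adjusted p = 0.101), without WT replicate 2 (adjusted p = 0.102) and without KO replicate 1 (adjusted p = 0.0544). Of 4 pseudogene copies named for ATF4, the most abundant, ATF4P3, stayed at or below 1.03 FPKM in every library.

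DDIT3, which encodes CHOP, the factor that joins ATF4 under lasting stress, held 2.10 and 2.90 FPKM in KO, against 11.7 and 7.52 FPKM in WT (ENSG00000175197, chromosome 12, 57516588 to 57521737, minus strand). The groups did not overlap, and the WT libraries differed 1.56-fold from each other. The mean was 3.86-fold lower in KO, a log2 difference of -1.58 (SE 0.23, adjusted p = 0.00849 in limma). These values rest on 48 and 62 reads in KO and 280 and 161 reads in WT. The gene shares 355 exon bases with MARS on the opposite strand, and the labels do not state whether counting used strand. MARS, a tRNA synthetase gene, stood at 25.04 and 24.4 FPKM in KO and 44.5 and 39.8 FPKM in WT, and its part in the DDIT3 values was not tested. CEBPB, a C/EBP factor that can pair with both ATF4 and CHOP, was at 51.9 and 76.4 FPKM in KO and at 94.2 and 76.3 FPKM in WT (ENSG00000172216, chromosome 20, 50190734 to 50192689, plus strand). KO replicate 2 and WT replicate 2 held almost the same level, so the groups overlapped. The log2 change of CEBPB was -0.42 with a 95% interval of -0.99 to 0.14 (limma adjusted p = 0.227), an interval that holds both 0 and a fall of nearly 1 on that scale.

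**Figure D1:**
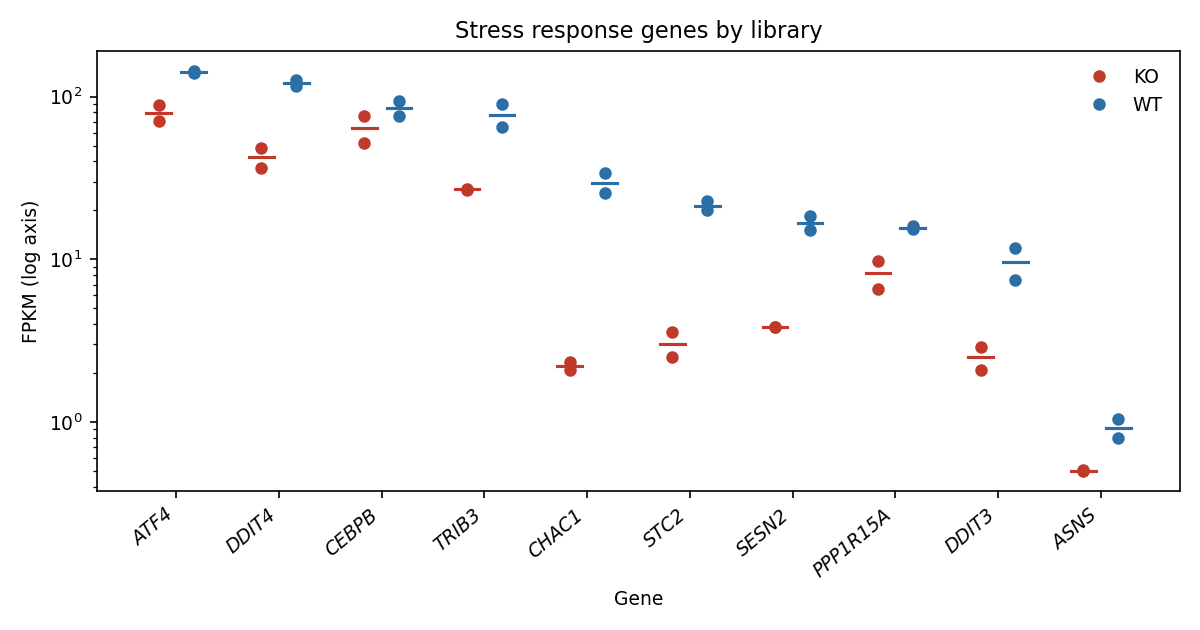
FPKM of the 10 genes on a log axis, with KO libraries (red) left of WT libraries (blue); points are libraries and bars are means of 2. KO lies below WT without overlap in 9 genes, and CEBPB overlaps.

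CHAC1, an enzyme that cleaves glutathione, showed the widest gap of the 10 genes (ENSG00000128965, chromosome 15, 40952962 to 40956519, plus strand). It stood at 2.08 and 2.34 FPKM in KO, against 33.8 and 25.5 FPKM in WT. The higher KO library was still 10.9-fold below the lower WT library. The means were 2.21 ± 0.185 FPKM in KO and 29.6 ± 5.92 FPKM in WT (SD, n = 2 each), and the log2 difference was -3.24 (SE 0.18, adjusted p = 0.00114 in limma). Only 0.078% of tested genes had a more negative change. By mean FPKM, CHAC1 held rank 9 among the 10 genes in KO and rank 5 in WT. It was called lower in every alternative fit run, with log2 changes from -3.73 to -3.04. With no filter on low values its limma adjusted p was 0.0451, near the threshold.

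STC2, a secreted glycoprotein that binds and blocks the metalloproteinase PAPP-A, was the next most reduced (ENSG00000113739, chromosome 5, 173314713 to 173329503, minus strand). Its level was 2.51 and 3.56 FPKM in KO and 20.1 and 22.7 FPKM in WT, without overlap. The mean was 7.06-fold lower in KO, and the log2 difference was -2.48 (SE 0.18, adjusted p = 0.00188 in limma).

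Both genes that brake the growth kinase complex mTORC1 fell in KO. SESN2, which senses leucine and is also a p53 target, stood at 3.82 and 3.82 FPKM in KO and at 18.5 and 15.1 FPKM in WT (ENSG00000130766, chromosome 1, 28259527 to 28282491, plus strand). The KO libraries were nearly equal, at 231 and 216 reads, and far below both WT libraries. The fall was 4.39-fold, and the log2 difference was -1.88 (SE 0.15, adjusted p = 0.00228 in limma). DDIT4, also known as REDD1, acts on mTORC1 through the TSC complex and is raised by several stresses, hypoxia and glucocorticoid among them. It was at 36.5 and 48.2 FPKM in KO and at 127 and 117 FPKM in WT (ENSG00000168209, chromosome 10, 72273920 to 72276036, plus strand). The groups lay 2.43-fold apart at their nearest values, and the mean was 2.89-fold lower in KO (log2 change -1.52, SE 0.18, limma adjusted p = 0.0048).

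Both feedback genes of the response fell. TRIB3, a pseudokinase that binds ATF4, CHOP and AKT, was at 26.8 and 27.2 FPKM in KO and at 90.0 and 65.0 FPKM in WT (ENSG00000101255, chromosome 20, 362835 to 397559, plus strand). Its KO libraries were nearly equal and its WT libraries differed 1.39-fold, with no overlap between groups. The mean was 2.87-fold lower in KO (log2 change -1.47, SE 0.19, limma adjusted p = 0.00585). PPP1R15A, or GADD34, the subunit that brings protein phosphatase 1 to eIF2 and so ends the response, was at 6.61 and 9.81 FPKM in KO and at 15.3 and 16.0 FPKM in WT (ENSG00000087074, chromosome 19, 48872392 to 48876057, plus strand). The nearest KO and WT values of PPP1R15A stood 1.56-fold apart. Its mean was 1.91-fold lower in KO, and the log2 difference was -0.88 (SE 0.20, adjusted p = 0.0265 in limma). The call was lost without WT replicate 1 (limma adjusted p = 0.0608) and without WT replicate 2 (adjusted p = 0.0744).

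ASNS, which makes asparagine and is a classical ATF4 target, was scarce in these cells and did not pass the filter on low values. It held 0.50 and 0.51 FPKM in KO and 1.05 and 0.794 FPKM in WT (ENSG00000070669, chromosome 7, 97852118 to 97872542, minus strand), which is 39 and 37 reads against 85 and 58 reads. Both KO values were below both WT values. With no filter, its log2 change was -0.35 and did not pass (SE 0.14, limma adjusted p = 0.267). The annotated gene shares 1985 exon bases with AC079781.5 on the same strand, which was itself at 0.532 and 0.696 FPKM in KO and 0.587 and 0.824 FPKM in WT, so reads of this locus may have been split or dropped and the level of ASNS is uncertain.

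**Figure D2:**
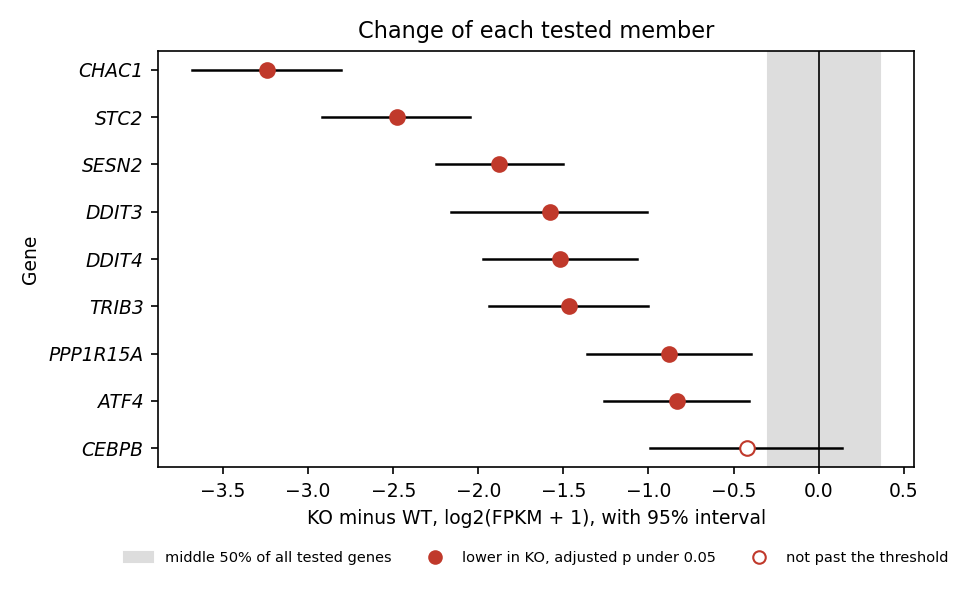
Change of the 9 tested members, KO minus WT, on the log2(FPKM + 1) scale, with 95% intervals from limma; filled points passed the adjusted p threshold and the grey band holds the middle 50% of all tested genes (-0.30 to 0.36). CHAC1 at -3.24 lies farthest out, and the interval of CEBPB crosses 0.

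The order of the levels differed between the groups. By mean FPKM, a level per length, the order in KO was ATF4, CEBPB, DDIT4, TRIB3, PPP1R15A, SESN2, STC2, DDIT3, CHAC1 and ASNS, and in WT it was ATF4, DDIT4, CEBPB, TRIB3, CHAC1, STC2, SESN2, PPP1R15A, DDIT3 and ASNS. Neighbours whose libraries overlapped were ATF4 with CEBPB, STC2 with DDIT3, and DDIT3 with CHAC1 in KO, and CEBPB with TRIB3 and SESN2 with PPP1R15A in WT. Summed over the 10 genes, the level was 203 and 264 FPKM in KO and 553 and 490 FPKM in WT. KO replicate 2 was above KO replicate 1 in 9 of the 10 genes, with SESN2 as the exception.

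Set against ATF4 in the same library, 6 of the other 9 genes had a lower level in both KO libraries than in both WT libraries and 1 had a higher one, as was the case for 6.7% and 77.4% of all other tested genes. The level of CHAC1 was 2.95% and 2.62% of that of ATF4 in KO, and 24.1% and 17.6% in WT. The mean of these library percents was 7.49-fold lower in KO. STC2 stood at 3.55% and 3.98% of ATF4 in KO and at 14.3% and 15.7% in WT. The ratio of DDIT4, TRIB3, SESN2 and DDIT3 to ATF4 was also lower in both KO libraries than in both WT libraries, 1.60-fold for TRIB3 to 2.44-fold for SESN2. The means of these 6 messengers fell by a larger factor than that of ATF4, and this difference was not tested. PPP1R15A kept close to ATF4, at 9.36% and 10.98% of it in KO and 10.9% and 11.1% in WT, and so did ASNS, at 0.708% and 0.568% in KO and 0.745% and 0.550% in WT. CEBPB went the other way, at 73.5% and 85.5% of ATF4 in KO and 67.1% and 52.8% in WT. With 2 libraries on each side the smallest p of an exact permutation test is 0.333 (two-sided), so no p is given for these ratios.

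**Figure D3:**
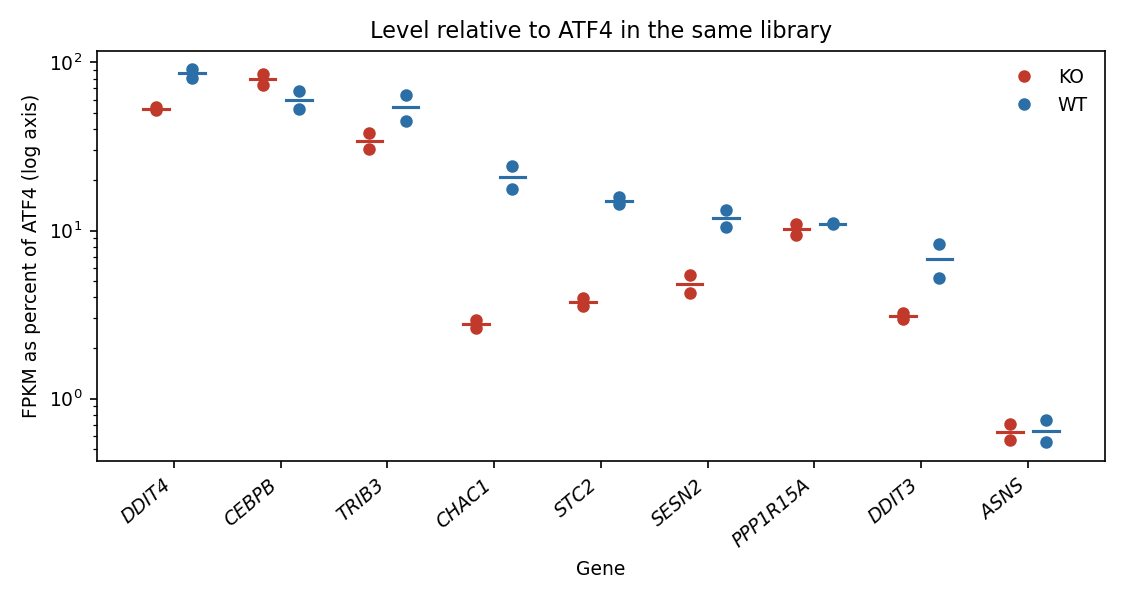
Level of each gene as a percent of ATF4 FPKM in the same library, on a log axis, KO (red) left of WT (blue); points are libraries and bars are means of 2. CHAC1 has the widest gap, while PPP1R15A and ASNS overlap between groups and CEBPB is higher in KO.

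Upstream of ATF4 stand the eIF2 kinases and eIF2 itself. Of 12 genes for the kinases, the eIF2 subunits and its exchange factor eIF2B, 2 rose and 0 fell, with a median log2 change of 0.30, counts near those that the shares of 12.7% higher and 11.6% lower over all genes would give. EIF2AK3, which encodes PERK, the kinase of ER stress, was at 5.88 and 4.94 FPKM in KO and 2.88 and 2.39 FPKM in WT (2.05-fold higher, limma adjusted p = 0.0168). EIF2AK1, the haem-regulated kinase, was 1.51-fold higher (limma adjusted p = 0.047). Both calls depended on single libraries: EIF2AK3 lost its call without WT replicate 2 (limma adjusted p = 0.0815) and without KO replicate 1 (adjusted p = 0.0516), and EIF2AK1 without any 1 library (adjusted p = 0.0538 to 0.322). Of 5 phosphatase subunits and adaptors, 1 fell and 0 rose, counts near those that the same shares over all genes would give. The gene that fell was PPP1R15B, the constitutive counterpart of PPP1R15A. It was at 17.7 and 14.8 FPKM in KO and 41.0 and 36.4 FPKM in WT (log2 change -1.20, limma adjusted p = 0.00584). PPP1R15B is counted again among the paralogues below. The catalytic subunit genes PPP1CA, PPP1CB and PPP1CC had log2 changes of 0.48, 0.30 and 0.25 and did not pass (limma adjusted p = 0.0807, 0.375 and 0.325).

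Partner factors of the bZIP class fell or did not pass the test. Of 23 listed, 20 were tested, 8 fell and 0 rose, with a median log2 change of -0.40. Over all tested genes, 11.6% were lower and 12.7% higher. Of the 17 at 1 FPKM or more in all 4 libraries 5 fell, with a median of -0.22, beside 11.4% of all such genes. With no filter on low values 3 fell, beside 0.823% of all genes. The list includes CEBPZ, which lacks a bZIP domain despite its symbol and is named for that reason. CEBPZ was tested and did not pass (limma adjusted p = 0.171). FOSL1, an AP-1 subunit, was 7.30-fold lower (3.39 and 4.85 FPKM in KO, 32.4 and 27.7 FPKM in WT, limma adjusted p = 0.00188). ATF3, itself a target of ATF4, was 6.66-fold lower, at 0.664 and 0.604 FPKM in KO and 5.03 and 3.41 FPKM in WT. It passed the filter on low values through its WT level alone, so its place among the tested genes depended on that difference. MAFF was 4.68-fold and JUN 3.30-fold lower (limma adjusted p = 0.00423 and 0.00686). The KO values of MAFF, 0.671 and 1.04 FPKM, lay near the filter limit, against 4.10 and 3.92 FPKM in WT. Of 10 paralogues of the members, 9 were tested, 5 fell and 1 rose, beside the same 11.6% lower and 12.7% higher over all tested genes. Of the 8 at 1 FPKM or more in all 4 libraries 4 fell, beside 11.4% of all such genes. With no filter on low values 1 paralogue fell, beside 0.823% of all genes. TRIB2 was 15.9-fold lower (24.97-fold without KO replicate 2) from a WT level of 2.96 and 2.63 FPKM, with 0.112 and 0.239 FPKM in KO, and like ATF3 it was tested only because of its WT level. SESN1 was 2.47-fold lower and TRIB1 1.98-fold lower, and the call of TRIB1 was lost without WT replicate 1, KO replicate 1 or KO replicate 2 (limma adjusted p = 0.181, 0.0875 and 0.127). The paralogue that rose, named after its value was seen, was DDIT4L, at 6.20 and 5.52 FPKM in KO and 3.29 and 2.83 FPKM in WT (limma adjusted p = 0.0171). Its call was lost without WT replicate 2 and without KO replicate 1 (limma adjusted p = 0.0984 and 0.0507). Without WT replicate 1 the paralogues that fell numbered 3.

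Genes that ATF4 is known to raise for amino acid supply fell in the main. Of 19 tested genes for amino acid synthesis and transport, 13 fell and 1 rose, with a median log2 change of -0.96. Over all tested genes, 11.6% were lower and 12.7% higher. With no filter on low values 4 fell and 0 rose, beside 0.823% of all genes called lower. PSAT1, an enzyme of serine synthesis, stood at 60.9 and 54.9 FPKM in KO and 218 and 183 FPKM in WT (3.46-fold lower, limma adjusted p = 0.00291). BCAT1, which acts on branched-chain amino acids, was 3.85-fold lower, the glycine transporter SLC6A9 3.09-fold and SLC3A2, the heavy chain of several transporters, 2.70-fold (limma adjusted p = 0.00677, 0.00269 and 0.00565). The gene that rose, named after its value was seen, was ALDH18A1, an enzyme of proline synthesis, at 47.8 and 40.7 FPKM in KO and 22.9 and 22.1 FPKM in WT (limma adjusted p = 0.0103, and 0.0501 without WT replicate 2). Without WT replicate 1 the count that fell was 8. Of 12 genes for tRNA synthetases and the tRNA exporter XPOT, 5 fell and 0 rose, with a median log2 change of -0.46. That is 41.7% lower, beside the same 11.6% over all tested genes. With no filter on low values 0 of these genes fell. WARS was 1.97-fold lower, CARS 1.88-fold, GARS 1.72-fold and MARS 1.71-fold (limma adjusted p = 0.0156, 0.0118, 0.0294 and 0.0164). Without WT replicate 1 none of the synthetase genes passed (limma adjusted p = 0.0812 to 0.196 for the 4 named), and 3 passed without WT replicate 2 or without KO replicate 2, GARS being lost in both fits (adjusted p = 0.0595 and 0.0702) and MARS without WT replicate 2 (adjusted p = 0.0667).

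**Figure D4:**
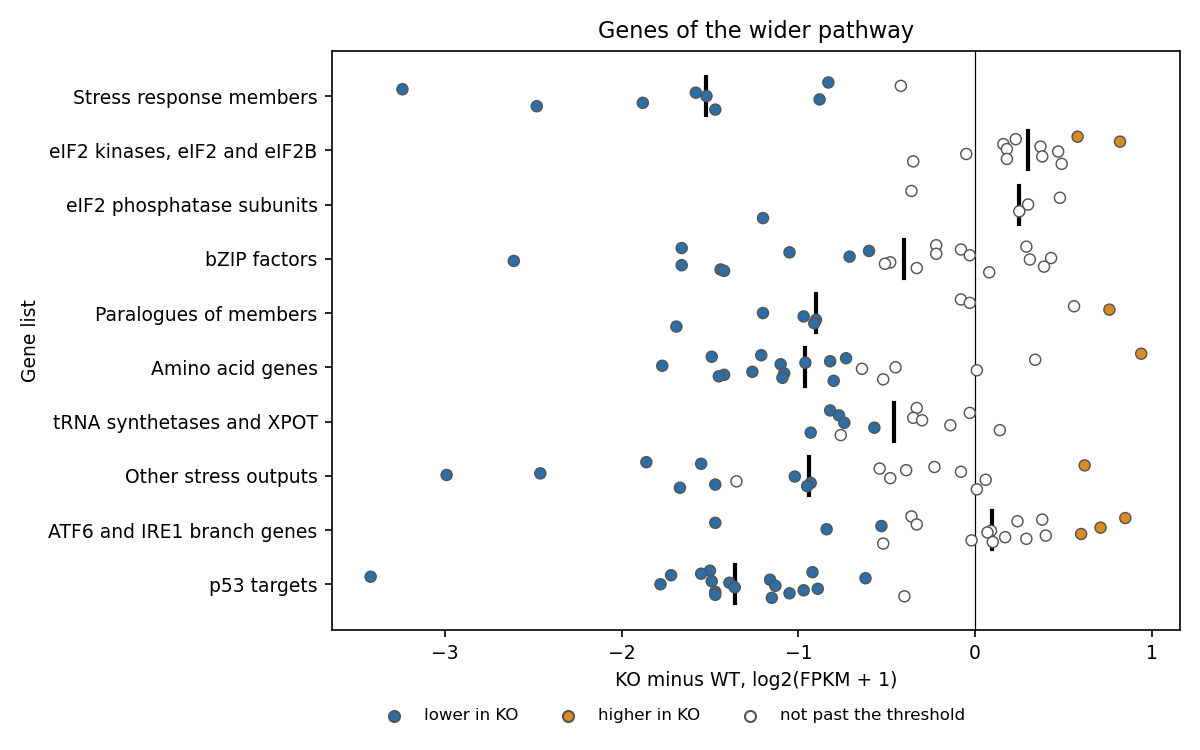
Change of each tested gene, KO minus WT on the log2(FPKM + 1) scale, by list; blue points were called lower in KO, orange points higher, open points did not pass, and black bars are list medians. The members have a median of -1.52 and the eIF2 kinase list 0.30.

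Among 20 further outputs of ATF4 or CHOP, 18 were tested, 9 fell and 1 rose, with a median log2 change of -0.94. Over all tested genes, 11.6% were lower and 12.7% higher. Of the 15 at 1 FPKM or more in all 4 libraries 7 fell and 1 rose, with a median of -0.93. Over all genes at that level, 11.4% were lower and 13.7% higher. With no filter on low values 5 outputs fell and 0 rose, beside 0.823% of all genes called lower. GDF15, a stress cytokine, stood at 24.7 and 33.0 FPKM in KO and 263 and 208 FPKM in WT, 8.16-fold lower (limma adjusted p = 0.00182). FAM129A, also called NIBAN1, was 10.5-fold lower (limma adjusted p = 0.00287). It was at 1.10 and 0.787 FPKM in KO, near the filter limit of 1 FPKM, and 12.2 and 7.67 FPKM in WT. VEGFA, the endothelial growth factor, was 3.66-fold lower (limma adjusted p = 0.00247). ADM2, a peptide hormone, was at 0.0935 and 0.200 FPKM in KO and 3.27 and 3.04 FPKM in WT, 21.5-fold lower (33.7-fold without KO replicate 2), and it too entered the test through WT alone. BCL2L11, the death protein BIM and a gene known to be raised by CHOP, was the one that rose and is named after its value was seen, at 5.87 and 5.22 FPKM in KO and 3.37 and 3.16 FPKM in WT (limma adjusted p = 0.0269). It lost that call without WT replicate 1, WT replicate 2 or KO replicate 1 (limma adjusted p = 0.116, 0.151 and 0.0738).

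Other branches of the unfolded protein response are run by ATF6 and IRE1. Of 18 tested genes, 3 fell and 3 rose, with a median log2 change of 0.09. That is 16.7% each way and near the background of 11.6% lower and 12.7% higher. With no filter on low values 0 fell and 0 rose. The chaperone cofactor DNAJB9, an IRE1 branch target, was at 9.38 and 7.21 FPKM in KO and 25.9 and 23.2 FPKM in WT (2.96-fold lower, limma adjusted p = 0.00433). HSPA5, the chaperone BiP, was lower, at 165 and 156 FPKM in KO and 314 and 264 FPKM in WT (limma adjusted p = 0.021). HSP90B1, the chaperone GRP94, was 1.64-fold higher and CALR, calreticulin, was higher at 228 and 294 FPKM in KO, against 123 and 167 FPKM in WT (limma adjusted p = 0.0248 and 0.0425). Only DNAJB9 of these 4 held its call without each library in turn: HSPA5 was lost without either WT replicate or KO replicate 2 (limma adjusted p = 0.0523 to 0.184), HSP90B1 without either WT replicate or KO replicate 1 (adjusted p = 0.0601 to 0.191), and CALR without WT replicate 1 or KO replicate 2 (adjusted p = 0.266 and 0.106).

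SESN2 belongs both to the ATF4 response and to the targets of p53, and p53 targets fell as well. Of 19 p53 targets listed apart from SESN2, 18 fell and 0 rose, beside 11.6% lower and 12.7% higher over all tested genes. Their median log2 change was -1.36, near the -1.52 of the stress response members. With no filter on low values 7 of these p53 targets fell, beside 0.823% of all genes. CDKN1A, the cell cycle inhibitor p21, was at 39.8 and 46.8 FPKM in KO and 472 and 469 FPKM in WT (10.9-fold lower, limma adjusted p = 0.000903). MDM2 was 3.84-fold lower, BTG2 3.75-fold and BBC3, which both ATF4 signalling and p53 can raise, 3.21-fold lower (limma adjusted p = 0.00348, 0.00363 and 0.0116). The lists share genes, so some falls are counted more than once. SESN1 is also counted among the paralogues, and BBC3 and TNFRSF10B, the latter named for this overlap, among the outputs of ATF4 or CHOP. The p53 list does not hold every target of p53, and other members or outputs may belong to both sets. How much of the fall in SESN2, or in any other member or output, goes with either set was not tested.

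The genes with the profile most like the mean of the 9 tested members over the 4 libraries were TNFSF9, GATA5, NPAS1, TCTEX1D4 and EFNA1, out of 11353 protein-coding genes outside the lists. Likeness was the root mean square distance between centred log2(FPKM + 1) profiles, which was 0.0139 for TNFSF9 and 0.0403 for EFNA1. The profile came from these same 4 libraries, so a match shows only a like difference between KO and WT. TNFSF9 stood at 16.3 and 20.5 FPKM in KO and 61.8 and 53.9 FPKM in WT. GATA5 was at 0.440 and 0.753 FPKM in KO and 4.33 and 3.55 FPKM in WT. TCTEX1D4 was at 0.374 and 0.800 FPKM in KO and 4.24 and 3.44 FPKM in WT. Both GATA5 and TCTEX1D4 entered the test through WT alone. Among the members themselves DDIT4 lay nearest to their mean profile, at 0.0583, and CHAC1 farthest, at 0.831.

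Depth was alike in the 4 libraries, with 16173899 to 17715774 reads recovered from the FPKM values, and 3 reads corresponded to at most 0.140 FPKM for any of the 10 genes, a floor that covers counting error only. Mitochondrial genes took 9.34% and 9.71% of reads in KO and 9.66% and 12.7% in WT. Most fibroblast markers did not bear out the label of a fibroblast line, in KO or in WT, and the identity of the cells was not tested. Of 13 fibroblast genes, 8 were under 1 FPKM in all 4 libraries. COL1A2 and POSTN had 0 reads, which allows up to 0.0164 and 0.0335 FPKM. The summed level of the 13 was 567 and 820 FPKM in KO and 1023 and 1412 FPKM in WT. Most of that sum was S100A4, which did not pass the test (limma adjusted p = 0.0679). Of the 5 fibroblast genes tested, TWIST2 fell and COL1A1 rose, at 3.04 and 3.16 FPKM in KO and 0.234 and 0.280 FPKM in WT, having entered the test through KO alone, and the median log2 change was 0.33. VIM was 1.55-fold and THY1 1.51-fold higher and did not pass (limma adjusted p = 0.129 and 0.203). Of 8 epithelial markers, 1 stayed below 1 FPKM everywhere, and their summed level, mostly KRT8 and KRT18, was 1530 and 1760 FPKM in KO and 708 and 815 FPKM in WT. Of the 7 tested, 4 rose, namely CDH1, KRT8, KRT18 and KRT19, and 2 fell. These 2 were CLDN4, at 0.947 and 0.973 FPKM in KO and 4.57 and 5.27 FPKM in WT, and KRT15, at 0.0727 and 0.0950 FPKM in KO and 2.21 and 1.93 FPKM in WT, and both entered the test through WT alone. The calls of TWIST2 (limma adjusted p = 0.188, 0.1 and 0.0566 without WT replicate 1, WT replicate 2 or KO replicate 1), KRT8 (adjusted p = 0.108 and 0.0502 without WT replicate 1 or KO replicate 2) and KRT18 (adjusted p = 0.0773 without WT replicate 1) depended on single libraries. All 5 endothelial markers and 4 of 5 leukocyte markers stayed below 1 FPKM in every library, with CD14 at 5.84 and 6.41 FPKM in KO and 19.4 and 16.9 FPKM in WT and CD3E at 0 reads (up to 0.0644 FPKM). These markers differed between the same libraries as the stress response genes, and their part in the results was not tested.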

How the data were processed

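RNA of 2 KO and 2 WT libraries was read on an Illumina NovaSeq instrument as paired ends and aligned with HISAT2 2.0.5, per the labels' protocols and the submitters' processing notes, which name the builds hg38 and mm10. The authors deposited 1 FPKM value per gene and library. No source used here names the counting tool, the annotation or the scaling between libraries. All 58735 gene IDs and coordinates equalled GENCODE release 29 on GRCh38. FPKM times gene length was a whole multiple of 1 step per library for 100.0% of values (tolerance 0.01), which gave reads; the divisor was 0.986 to 1.03 times their sum, so a scaling is already included.

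Values were tested as log2(FPKM + 1), a scale that understates changes of low genes, with limma 3.58.1 in R 4.3.3 (statmod 1.5.0), with an intensity trend, a robust prior and no replicate block. Genes with at least 1 FPKM in at least 2 libraries entered, 14100 in all, with calls made where p, adjusted by Benjamini-Hochberg, was under 0.05. In a single draw of simulated counts, with 200 changed genes and 13928 in the fit, 131 of the changed genes were called and 35 other calls were false. The scatter between simulated libraries was fixed and not estimated from these data. False calls were 21.1% of all calls at these settings, against the nominal 5%, and the share may differ at others. Where the false calls lay relative to the threshold was not examined. Single calls, those near the threshold above all, and counts of calls are therefore uncertain. The false share among the 3425 genes called in these data is not known. Folds are ratios of mean FPKM, except that folds of levels relative to ATF4 are ratios of mean library percents. Members and lists were chosen with earlier results of these data known, so their counts are no independent support. From each other list up to 4 tested genes were named, those called by size of change, or the most abundant where fewer than 2 were called; the 5 nearest profiles were added, and genes named otherwise are said to be.

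Alternatives were no filter, 1 FPKM in all 4 libraries, pseudocounts of 0.1 and 0.5, quantile normalization, equal totals, no trend, each library left out and a replicate block; a prior that is not robust and limma-voom on the recovered reads were added after the data were seen.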

Additional observations from a re-analysis of the deposited data

How the results depend on the processing

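Under all 14 alternatives the 9 tested members kept a negative change, and CHAC1, STC2 and SESN2 kept their calls. With no filter on low values 3 members were lower, 261 genes were higher and 266 lower over all genes, and 0 and 19 over the pathway lists, against 8, 1795, 1630, 8 and 58; the cause was not tested. ATF4, DDIT3, TRIB3, PPP1R15A and DDIT4 then had limma adjusted p of 0.0962, 0.0752, 0.0609, 0.127 and 0.0545. The calls that CHAC1, SESN2 and STC2 kept in that fit were near the threshold (limma adjusted p = 0.0451 each). At 1 FPKM in all 4 libraries 5 bZIP partners were lower, against 8, since fewer genes were tested. With quantile normalization 4 pathway genes were higher. The median of all genes stayed between -0.00 and 0.04 in every fit. Leaving out 1 library gave 6 to 8 members lower, 880 to 1508 genes higher and 809 to 1400 lower, and 1 to 7 pathway genes higher and 38 to 54 lower. CEBPB ranged from -0.70 (without KO replicate 2, limma adjusted p = 0.0602) to -0.15 (without KO replicate 1). KO and WT share the replicate numbers 1 and 2, which the labels do not say mark a shared culture; the deviations of same-numbered libraries correlated at 0.411 over genes. With the number as a replicate block 2971 genes were higher and 2582 lower, 16 pathway genes higher and 70 lower, and 8 members lower. Limma-voom on the recovered reads, chosen after seeing the data, also called 8 members lower, beside 13.9% of all genes. The calls of ATF4 and PPP1R15A, both under 2-fold, were lost without either WT library, and the 37 to 85 reads of ASNS limit its precision.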
